A study of Mus musculus with 237 samples.

Results

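The 74 wild-type cap mesenchyme cells of the E18.5 mouse kidney (E, embryonic day) were divided by their own level of Mki67, the gene of the Ki-67 proliferation antigen. RPKM correct reads for the length of a transcript and for sequencing depth, and cells with Mki67 at 1 RPKM or more were set against cells with less, across all genes. The cut placed 48 cells on the high side and 26 on the low side, of 237 cells in the series. Mki67 therefore chose the classes, and its own difference is a description. It ran from 1.22 to 633 RPKM with a median of 45.2 in the high cells, and from 0 to 0.721 in the low cells, of which 5 were listed at 0. The cells nearest to the cut were at 0.721 and 1.22 RPKM. There were 5 cells from 0.5 to under 1 RPKM and 3 from 1 to under 2, while 38 cells were at 10 or more.

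Cells of embryonic kidneys of mixed strain were freed by protease, enriched by flow sorting and captured 1 by 1 in a microfluidic chip. The labels give no treatment. All 74 cells are labelled as cap mesenchyme or its descendants, carry 1 date and 1 pool number, and were not assigned to embryos. The other groups used below are 71 wild-type interstitial cells of E18.5, whose titles name FoxD1_GCE, and cap mesenchyme cells of Pax2 mutants, 29 of E13.5 and 44 of E18.5. The Pax2 allele and the sorted marker are not given in the sources used here. With no embryo named, each class counts as 1 sample, so no test was made, and every SD is the spread between cells.

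Cap mesenchyme holds the self-renewing progenitors of the nephron, kept by the transcription factor Six2 and used up as they turn into epithelium. A dividing cell first copies its DNA, with helicase, polymerase, nucleotide and histone genes active, and then builds the spindle that parts the chromosomes. Mki67 and Top2a, the enzyme that untangles DNA, are both made mainly from DNA synthesis to mitosis, and neither is a direct measure of whether a cell will divide again.

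The low class was not free of cycle transcripts. Top2a was at 1 RPKM or more in 47 of the 48 Mki67-high cells (97.9%, exact 95% interval 88.9 to 99.9, which covers counting error only) and in 16 of the 26 Mki67-low cells (61.5%, 40.6 to 79.8). Its lowest, median and highest values were 0.334, 337 and 812 RPKM in the high cells. In the 16 low cells with Top2a they were 1.15, 5.51 and 128 RPKM, so the ranges overlapped although most of these cells sat far below the high class. The 10 other low cells had at most 0.817 RPKM. The name "non-cycling" is thus not borne out by these data for the whole low class, and the cells are called Mki67-low here, with and without Top2a.

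**Figure D1:**
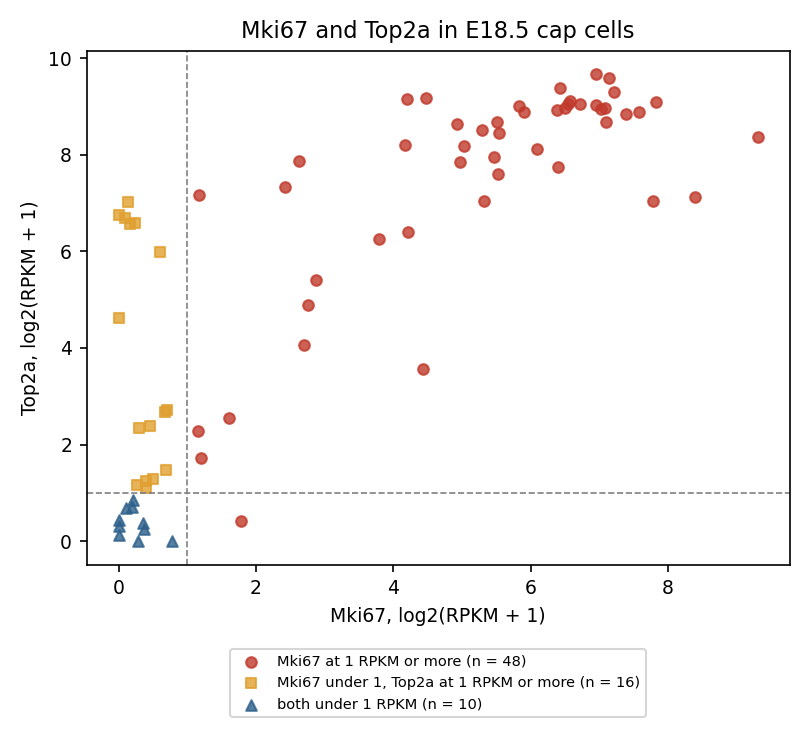
Each point is 1 of the 74 cap cells, with Mki67 on the horizontal and Top2a on the vertical axis, both as log2(RPKM + 1), and dashed lines at 1 RPKM. The 16 cells at the upper left hold Top2a with Mki67 under the cut, 10 cells lie under both cuts, and 1 cell has Mki67 without Top2a.

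The classes also differed in how many genes were seen per cell. Mki67-high cells had a median of 5536.5 genes at 1 RPKM or more (2745 to 7215) and Mki67-low cells 4709 (1656 to 6534). The values are not counts, so read depth is unknown and its part in the results was not tested. The comparison was therefore repeated among cells with 4500 to 6000 genes, 20 high and 12 low. This repeat, called matched gene number below, brought the classes closer but not level, with medians of 5508.5 and 5047 genes. Six2 was at 1 RPKM or more in 43 high and 19 low cells. All 12 cells without it had 4315 genes or fewer, so the repeat at matched gene number held Six2-positive cells only. Some cells stood apart from their label. In 5 cells, 2 high and 3 low, the mean log2(RPKM + 1) of 14 stromal genes was 3.17 to 4.88, against at most 2.29 in the other 69, while interstitial cells averaged 3.70 (high) and 4.14 (low). None of the 5 held Six2, so the Six2-positive repeat leaves them out. Pdgfra or Col3a1, stromal genes, reached 1 RPKM in 8 of 48 high and 6 of 26 low cells, these 5 included. Without those 14 cells 881 genes were higher and 291 lower, the spindle score described below differed by 3.16 in place of 3.17, and the replication score by 0.96 in place of 1.05.

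Promoter sequences of the members at the centre of the split are shown first, because many of the genes below differ in the same direction. They are the 150 bases before the start of transcription, from RefSeq (GRCm38.p6), on the strand of the gene. Capitals mark matches to 3 motifs searched on both strands: the cell cycle homology region CHR (TTTGAA), the element bound by MuvB complexes that control G2 and mitotic genes, the NF-Y box (CCAAT), and the E2F site (TTCCCGC, with TTGGCGC, then TTGCCGC, and also TTCGCGC), bound by E2F factors at S phase genes. Kpna2, Top2a, Ube2c and Ckap2l are among the 10 genes with the largest differences and carry a CHR match 35, 23, 29 and 30 bases before the start. The windows are at chr11:106999526-106999675, chr11:99024190-99024339, chr2:164769779-164769928 and chr2:129297213-129297362, on the minus strand but for Ube2c.
Kpna2: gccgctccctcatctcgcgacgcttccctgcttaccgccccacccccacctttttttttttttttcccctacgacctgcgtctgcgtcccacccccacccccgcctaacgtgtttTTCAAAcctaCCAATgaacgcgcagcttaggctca
Top2a: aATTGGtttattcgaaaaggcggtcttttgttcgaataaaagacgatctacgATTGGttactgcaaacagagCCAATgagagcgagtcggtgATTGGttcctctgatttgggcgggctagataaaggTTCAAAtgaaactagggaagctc
Ube2c: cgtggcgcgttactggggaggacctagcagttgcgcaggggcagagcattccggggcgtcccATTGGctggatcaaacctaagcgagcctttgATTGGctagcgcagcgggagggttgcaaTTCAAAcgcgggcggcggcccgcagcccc
Ckap2l: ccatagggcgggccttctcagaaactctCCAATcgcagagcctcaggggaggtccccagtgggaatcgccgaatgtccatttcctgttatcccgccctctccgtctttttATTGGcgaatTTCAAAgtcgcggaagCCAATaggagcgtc
All 4 also hold NF-Y boxes. Top2a has 4 of them, Ckap2l 3, Ube2c 2 and Kpna2 1.

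Ccnb1 (chr13:100786487-100786636, minus strand), the gene of cyclin B1, is shown as a leading gene without a CHR match in this window. Cdca3, also among the 10, has no CHR match in its 150 bases, Tacc3 has no match to any of the 3 motifs, and Rrm2, a nucleotide synthesis gene with a large difference, has no E2F match. Pbk, Tpx2 and Fam64a had no promoter entry under these symbols, so 7 of the 10 leading genes were examined. Mki67 itself (chr7:135716380-135716529, minus strand) has 2 CHR matches and 1 E2F match. Mcm6 (chr1:128359706-128359855, minus strand), a subunit of the replicative helicase, is shown as an S phase gene that was not higher in the Mki67-high cells. The Mcm6 window is 1 of 2 whose bases after the start were found in no GENCODE transcript of the gene, in sense or antisense, so its start is less sure.
Ccnb1: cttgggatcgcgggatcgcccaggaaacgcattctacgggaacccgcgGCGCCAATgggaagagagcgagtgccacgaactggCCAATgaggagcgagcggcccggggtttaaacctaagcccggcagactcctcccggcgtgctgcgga
Mki67: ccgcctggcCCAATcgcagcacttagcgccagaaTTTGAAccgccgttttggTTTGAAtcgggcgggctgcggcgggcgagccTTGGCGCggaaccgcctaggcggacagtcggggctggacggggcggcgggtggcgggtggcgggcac
Mcm6: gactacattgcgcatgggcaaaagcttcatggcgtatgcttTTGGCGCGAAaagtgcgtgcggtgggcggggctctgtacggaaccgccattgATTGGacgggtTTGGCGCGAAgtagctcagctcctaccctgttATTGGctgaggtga
In Ccnb1 an E2F match overlaps an NF-Y box. In Mcm6 the 4 E2F matches form 2 overlapping pairs. A match is a description of letters, not a bound site, and no match says only that these letters are not in this window.

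Across the genome table the difference in mean log2(RPKM + 1), high minus low, was taken for 11115 genes that reached 1 RPKM in at least 10% of either class. Of these, 875 (7.87%) were higher and 176 (1.58%) lower in Mki67-high cells by 1 log2 unit or more, the size called higher or lower below. The median of all tested genes was 0.16, and with that shift removed the counts were 590 and 310, which moves the higher share of the called genes from 83.3% to 65.6%. The lower side was the less stable: 862 genes (7.62%) were lower among cells with 4500 to 6000 genes, against 1163 higher (10.3%). Fold sizes on this scale understate changes of genes with low values.

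Kpna2, an importin, had the largest positive difference, followed by genes known from mitosis. It ran from 0 to 8363 RPKM with a median of 356 in high cells, and from 0 to 317 with a median of 1.45 in low cells. The ranges overlapped, but the difference was 5.18 log2 units (7.35 ± 3.10 against 2.18 ± 2.40, SD, n = 48 and 26 cells). Top2a followed with 5.05 and Pbk, a mitotic kinase, with 4.82. Pbk was at 1 RPKM or more in 40 of 48 high cells with a median of 207, and in 6 of 26 low cells with a median of 0, all 6 with Top2a. Its highest value, 879 RPKM, was in a low cell.

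Tpx2, which builds the spindle and activates Aurora A, had medians of 44.2 and 0.206 RPKM (difference 4.35). For Ube2c, the ubiquitin-conjugating enzyme of the anaphase-promoting complex, the medians were 155 and 1.28 (4.32). Ccnb1 had medians of 116 and 0.109 (4.18), and it was seen in 35 of 48 high cells and 6 of 26 low cells, again all with Top2a. Fam64a (4.16), Tacc3 (4.16), Ckap2l (4.06) and Cdca3 (3.99) complete the 10. Ckap2l, a spindle protein, was the most nearly split of these: its highest value in a low cell was 4.63 RPKM, against a median of 48.8 in the high cells. All 10 stayed higher by at least 4.30 at matched gene number, and by at least 3.57 against the low cells that hold Top2a. Both repeats use cells from which the 10 genes were chosen, so they are no independent support.

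The spindle and kinetochore genes were higher almost as a block. Of 30 tested members, 29 were higher and none lower, with a median difference of 3.30 against 0.16 for all genes. The list score, the mean log2(RPKM + 1) of its members in a cell, was 4.16 ± 1.77 in high cells and 0.99 ± 0.89 in low cells. At matched gene number the score difference grew from 3.17 to 3.75. Members include the outer kinetochore genes Ndc80 (3.46) and Nuf2 (3.72), the motors Kif11 (3.89) and Kif20a (3.71), and the midzone genes Prc1 (3.90) and Racgap1 (3.68). Kif18b, a kinesin seen in only 12 of 48 high and 2 of 26 low cells, was the exception at 0.77.

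Most single mitotic genes were absent from a part of the high class too. Aurka, the Aurora A kinase of the spindle poles, was at 1 RPKM or more in 28 of 48 high cells and 1 of 26 low cells (3.24). Plk1, the Polo kinase, was seen in 31 and 2 cells (2.46), and Foxm1, the factor that drives G2 genes, in 26 and 1 (2.24). Bub1, of the spindle checkpoint, was seen in 40 and 3 cells (3.43). Among the 26 G2 and mitotic regulators 23 were higher and none lower, with a median of 2.85. The others were Mybl2 (0.81), Lin9 (0.34) and Pttg1, the securin, whose difference was -0.33. Cdc20, the activator of the anaphase-promoting complex, passed only narrowly (1.05) and was at 2.38 RPKM or more in every cell of both classes.

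Condensin and chromatin genes were higher in 17 of 19, with a median of 2.09 and a score of 6.71 ± 1.44 against 4.28 ± 1.10. Smc4 and Smc2, the core of condensin, differed by 3.39 and 3.27, and Ncapd2, another subunit, by 3.75. Smc4 was above 1 RPKM in all 48 high cells, with a lowest value of 1.03, and in 19 of 26 low cells. Hmgb1, Hmgn2, H2afz, Tuba1b and Tubb5 of this list have near-identical copies among which reads could be split, so their values are uncertain.

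Replication genes differed far less than spindle genes. Of 28 tested, 15 were higher and none lower, with a median of 1.15 and a score of 3.45 ± 1.55 against 2.39 ± 1.68. The genes that act at the fork led: Lig1, the ligase of Okazaki fragments (2.49), Prim1, of primase (2.32), Rpa2, which binds single-stranded DNA (1.96), Fen1, the flap nuclease (1.82), and Pcna, the sliding clamp (1.70). Gmnn, the inhibitor of licensing, was also higher (1.96). The helicase itself was divided. Mcm3 (1.5) and Mcm7 (1.22) were higher, while Mcm2 (-0.11), Mcm4 (0.52), Mcm5 (-0.01) and Mcm6 (-0.58) did not differ by 1 log2 unit.

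Mcm6 shows how close the classes were. Its lowest, median and highest RPKM were 0, 16.2 and 440 in the high cells and 0, 39.4 and 314 in the low cells, with 34 of 48 and 20 of 26 cells at 1 or more. The classes overlapped over nearly their whole range. Mcm4 had medians of 38.6 and 39.5 RPKM. The loading factors Cdt1 (0.39) and Cdc6 (0.36), which place the helicase on DNA, likewise did not reach 1 log2 unit.

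The Mki67-low cells with Top2a were a mixed class for replication genes and mostly close to the low side for spindle genes. Their mean replication score was 2.82 ± 1.98 (n = 16), against 3.45 ± 1.55 in Mki67-high cells and 1.71 ± 0.68 in low cells without Top2a (n = 10). Their scores ran from 0.37 to 6.51 with a median of 2.58, so that the class covered the range of both others, and the low cells without Top2a ran from 0.71 to 3.15 with a median of 1.54. Of the 26 low cells, 5 lay above the median replication score of the high cells, and all 5 held Top2a. None of the 26 lay above the median spindle score, though 22 of 48 high cells lay under the highest low cell. That cell held Top2a and had a spindle score of 4.06 at a replication score of 1.03, and the next highest low cell had a spindle score of 2.61. The same cell had the highest Kpna2 and Pbk of the low class, 317 and 879 RPKM. Of the 30 spindle genes, a high cell had a median of 27 at 1 RPKM or more (3 to 30), a low cell with Top2a 9.5 (4 to 21) and a low cell without it 4 (0 to 9). Of the 28 replication genes the medians were 20.5, 14.5 and 10.

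Against the high class, 1269 of 11235 genes were lower in the low cells with Top2a (11.3%) and 166 higher (1.48%). Against the low cells without Top2a, 1138 of 11961 were higher in the high class (9.51%) and 1046 lower (8.75%). Between the low classes, 612 of 11754 genes were higher in the cells with Top2a (5.21%) and 1839 lower (15.6%). Among the low cells several S phase genes were seen only beside Top2a. Tk1, the salvage enzyme thymidine kinase, was at 1 RPKM or more in 7 of 16 low cells with Top2a and 0 of 10 without. Rpa2 was seen in 9 of 16 and 0 of 10, and Clspn, a checkpoint mediator at the fork, in 10 of 16 and 0 of 10. Mcm5 had a median of 27.9 RPKM in the low cells with Top2a, 0.348 in those without, and 4.11 in the high class. The low classes had like medians of 4691 and 4709 genes, but ranges of 1656 to 6534 and 3059 to 6122, and the 3 low cells under 3000 genes all held Top2a. Six2 was seen in 10 of 16 and 9 of 10, and Pdgfra or Col3a1 in 5 of 16 and 1 of 10. The part of these in the differences between the low classes was not tested. Since Top2a chose them and each cell gives all its genes, these are descriptions.

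**Figure D2:**
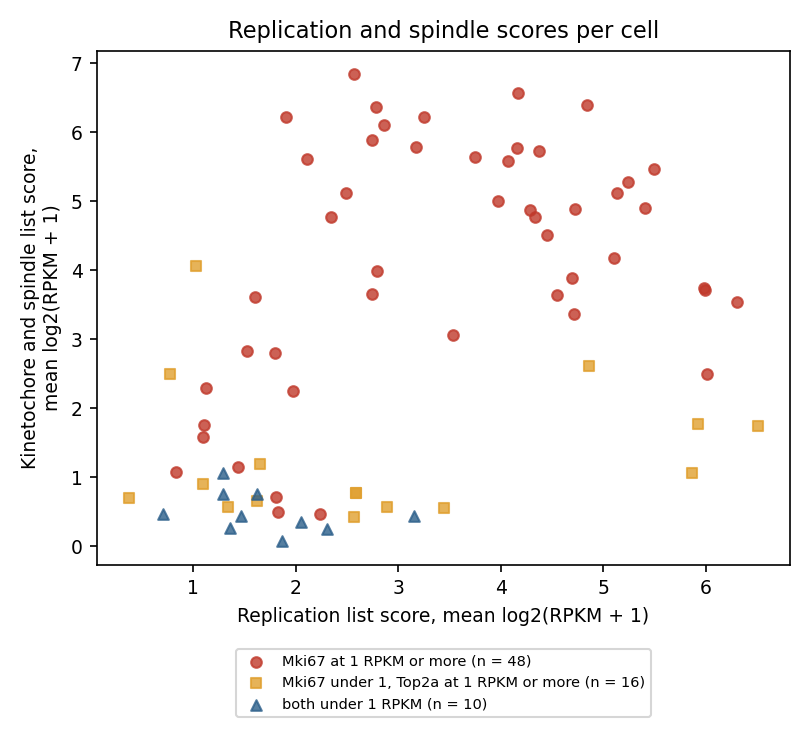
Each point is 1 cap cell, with the mean log2(RPKM + 1) of 28 replication genes on the horizontal axis and of 30 spindle and kinetochore genes on the vertical axis. High cells spread over the whole field. Some low cells with Top2a lie far to the right at low spindle scores, and another has a spindle score of 4.06. The 10 low cells without Top2a have replication scores up to 3.15 at low spindle scores.

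Nucleotide synthesis genes were higher in 8 of 15 and lower in none (median 1.05). Ribonucleotide reductase led, with Rrm2 at 3.34 and Rrm1 at 2.52. Rrm2 had medians of 136 RPKM in high cells and 0.447 in low cells, where it was seen in 9 of 26, of which 8 held Top2a. Tk1 differed by 2.77, and Tyms, thymidylate synthase, by 1.24 with a value above 1 RPKM in all 74 cells. Of the repair and fork-protection genes, 14 of 16 were higher (median 1.28), among them Brca1 (1.41), of double-strand break repair, and Chek1 (1.30), a checkpoint kinase. Of the genes that copy chromatin marks, 6 of 12 were higher, led by Uhrf1 (2.92), which brings DNA methyltransferase to new DNA, and Ezh2 (2.10), of Polycomb. Dnmt1, the maintenance methyltransferase, differed by 1.10 and Dnmt3b by 0.01.

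Replication-dependent histones were higher in 16 of 23 and lower in none (median 1.45). Hist1h1b, a linker histone, was listed at 0 in all 26 low cells, those with Top2a included. In the high cells it ran from 0 to 517 RPKM with a median of 4.51, and 29 of 48 were at 1 or more. Hist1h2ae had medians of 36.7 and 0.698 RPKM (difference 3.05). These genes are near-identical copies and most of their mRNA has no poly(A) tail, so single members are uncertain.

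The regulators of the entry into S phase differed less than the replication genes, with a median of 0.41 against 0.16 for all genes. Of 15 tested, 3 were higher, beside 7.87% of all tested genes. They were Cdk2 (1.76), its partner cyclin E1, Ccne1 (1.59), and the E2F repressor E2f8 (1.55). Ccne1 was at 1 RPKM or more in 22 of 48 high and 4 of 26 low cells. Ccnd1, cyclin D1, was seen in 8 and 4 cells (-0.10). Its median was 0 RPKM in both classes.

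Genes of cell cycle arrest were mixed. Of 17 tested, 2 were higher and 3 lower, beside 7.87% higher and 1.58% lower among all tested genes. Their median was 0.40, against 0.16 for all genes. Cdkn2d, the p19 inhibitor of cyclin D kinases, was higher (2.08), as was Ccng2 (1.62), while the antiproliferative Btg2 (-1.23), Cdkn1c (-1.20) and the translation inhibitor Pdcd4 (-1.02) were lower. Cdkn1a, the p53-induced inhibitor p21, differed by 0.60 and Cdkn1b, p27, by 0.83. None of the 10 p53 and apoptosis genes tested differed by 1 log2 unit, though a list this short would hold few called genes at those shares.

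Cdkn1c, the imprinted inhibitor p57, was low mainly against the cells without Top2a. All 10 of those held it, from 29.3 to 267 RPKM with a median of 90.0. The low cells with Top2a ran from 0 to 335 with a median of 16.7, and the high cells from 0 to 228 with a median of 12.2. The high class overlapped both, and 8 of 48 were under 1 RPKM. The difference was -2.90 against low cells without Top2a, -0.13 against those with it, and -0.14 at matched gene number.

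The genes higher in Mki67-low cells were fewer and differed by less. Il33, an alarmin cytokine of the interleukin 1 family kept in the nucleus, led with -2.86. It ran from 0 to 1609 RPKM with a median of 18.1 in the high cells, where 36 of 48 reached 1, and from 0 to 1571 with a median of 313 in the low cells, where 23 of 26 did. The ranges coincided, and the difference lay in the middle of the distributions. All 10 low cells without Top2a held Il33, at 61 RPKM or more. The difference was -5.11 at matched gene number and -2.19 against low cells with Top2a.

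Gstm1, a glutathione transferase of a multigene family, followed with -1.98 and medians of 0.693 and 54.6 RPKM. Gpx1 (-1.81) and Gpx8 (-1.77), both glutathione peroxidases, were also among the 10, with the Wnt pathway genes Dvl3 (-1.84), an intracellular adaptor, and Rspo3 (-1.63), a secreted enhancer. Rspo3 had medians of 3.99 RPKM in high cells, 8.41 in low cells with Top2a and 98.0 in low cells without. The others were the dehydrogenase Dhrs1 (-1.66), the SNARE protein Vamp8 (-1.66), Zfp57 (-1.63), which guards imprints, and the small GTPase Rab18 (-1.63). Of these, Gpx1 depended on the set of cells used: it was -0.17 without the cells holding Pdgfra or Col3a1 and -0.05 without the 20 cells high in the pseudogene LOC100503946. Without the latter cells Dhrs1 (-0.82) and Rab18 (-0.85) also did not reach 1 log2 unit. At matched gene number all 10 stayed below 0 and 8 stayed lower by 1, the exceptions being Gpx1 (-0.93) and Rspo3 (-0.79). The 10 were chosen from cells that include these, so that is no independent support. With Mki67 above 0 as the cut, which leaves 5 low cells, none of the 10 was lower by 1 log2 unit, and Gpx1, Gpx8 and Zfp57 turned to 0.31, 0.25 and 0.040. In the main split each of the 10 differences was smaller in size than the SD between cells, pooled over the classes (3.25 for Il33, 3.19 for Gstm1). Each of the 10 leading higher differences was larger than its own pooled SD.

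Nephron progenitor genes were close to level when all cells were used. Of 14 tested members, Six2 was higher (1.33) and none was lower, with a median of 0.06. Six2 had medians of 81.0 and 40.9 RPKM, and the low cells with Top2a had the lowest, 18.1. Among the 62 cells with Six2 at 1 RPKM or more, 43 high and 19 low, 746 of 11326 genes were higher (6.59%) and 479 lower (4.23%). Six2 itself then differed by 0.46, a value that its own use as the filter limits.

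In these Six2-positive cells 4 of the 14 progenitor genes were lower and none higher, with a median of -0.46 against 0.04 for all genes. They were Cited1, a marker of the uninduced progenitor (3.27 ± 3.0 against 4.64 ± 3.25, SD, n = 43 and 19 cells; -1.37), Hoxd11, a kidney patterning factor (-1.29), Crym (-1.19) and Enc1 (-1.01). In all 74 cells the same genes differed by -0.58, -0.59, -0.14 and -0.23. Crym and Enc1 were at 1 RPKM or more in all 19 Six2-positive low cells, and in 37 and 42 of the 43 high cells. The SDs between cells were larger than each of these differences except that of Enc1 in low cells. The score lay on either side of 0 with the cells used, at 0.11 in all cells, -0.39 in Six2-positive cells, -0.26 without cells holding Pdgfra or Col3a1 and -0.48 at matched gene number.

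The leading cycle genes were nearly the same in Six2-positive cells, with 9 of 10 shared and Nusap1 (4.30), a spindle microtubule binder, in place of Tacc3 (4.0). Of the 30 spindle genes 29 were again higher (median 3.36), and of the 28 replication genes 13 were higher and 1, Mcm6 (-1.15), lower. On the lower side only Il33 (-3.75) and Gstm1 (-2.47) were shared among the 10. Il33 was at 1 RPKM or more in all 19 Six2-positive low cells and in 31 of 43 high cells. The others were Ramp2 (-2.38), a coreceptor of calcitonin-family receptors, Nop16 (-2.27), Frat1 (-2.23), a Wnt pathway activator, Cd99l2 (-2.22), Tmem176b (-2.22), Clcn4-2 (-2.22), Fam213a (-2.16) and Lrrc42 (-2.16). All 8 were also lower in all cells, from -1.22 to -1.60, so the lists differ in order rather than in sign. The Six2-positive cells are part of the same cap cells, so shared genes and signs are no independent support.

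Differentiation and signalling lists held no called genes, though in most of them many members were too low to be tested. None of the 6 committing nephron genes tested differed by 1 log2 unit, and Wnt4, the inducer of the epithelial transition, had medians of 3.84 and 4.01 RPKM. The same held for the genes tested of the podocyte (5 of 12), proximal tubule (1 of 12) and loop and distal tubule (3 of 12) lists. It also held for FGF response (10 of 10), Notch (7 of 12) and Wnt target genes (5 of 12). Among all tested genes 7.87% were higher and 1.58% lower, so lists this short would hold few called genes at those shares. Immediate early and stress genes gave a score of 1.22 in high and 1.21 in low cells. In the low cells Fos, a gene induced within minutes of stress, was at 1 RPKM or more in 3 of 16 with Top2a and 6 of 10 without.

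Markers of most other cell types were low in both classes, stromal genes excepted. Of 10 immune markers 8, Ptprc and Csf1r among them, were at 0 in every cap cell, as were 6 of 10 endothelial markers with Pecam1 and Kdr, 7 of the 8 erythroid markers with an entry, and 6 of 12 ureteric markers with Ret. Of 14 stromal genes 10 were tested, and none differed by 1 log2 unit. Their score was 0.62 ± 0.74 in high and 0.95 ± 1.44 in low cells, a difference of -0.33 that was 0.03 in Six2-positive cells, -0.03 at matched gene number and 0.11 without cells holding Pdgfra or Col3a1. These means hide the 5 cells with high stromal scores described above.

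Few energy and growth genes differed by 1 log2 unit in all cells, beside 7.87% higher and 1.58% lower among all tested genes. In lists this short, 1 gene says little about the list, and the list scores moved with the cells used. Of 13 glycolysis genes 1 was lower, Pfkl, of phosphofructokinase (-1.45), and of 13 oxidative phosphorylation genes 1 was higher, Ndufs1, of complex I (1.20). Aldoa, the aldolase, lay just inside 1 log2 unit. The oxidative phosphorylation score differed by -0.06 in all cells, -0.53 in Six2-positive cells (3 of 13 genes lower, 0 higher), -0.84 against low cells without Top2a, 0.43 against those with it, and 1.71 with Mki67 above 0 as the cut. The glycolysis score differed by -0.21, and by -0.47 in Six2-positive cells (2 of 13 lower), with a range from -0.58 (split by Top2a) to 0.91 (Mki67 above 0). Of 15 Myc and ribosome biogenesis genes Nhp2 was higher (1.01), and it differed by 0.49 in Six2-positive cells. Of 11 serine and one-carbon genes 3 were higher: Mthfd2 (1.89) and Shmt2 (1.42), both of the mitochondrial folate pathway, and Psat1 (1.48), of serine synthesis. The score of that list differed by 0.73 in all cells and 0.52 at matched gene number. Of 12 housekeeping genes the elongation factor Eef2 was lower (-1.47), and the score differed by -0.03.

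**Figure D3:**
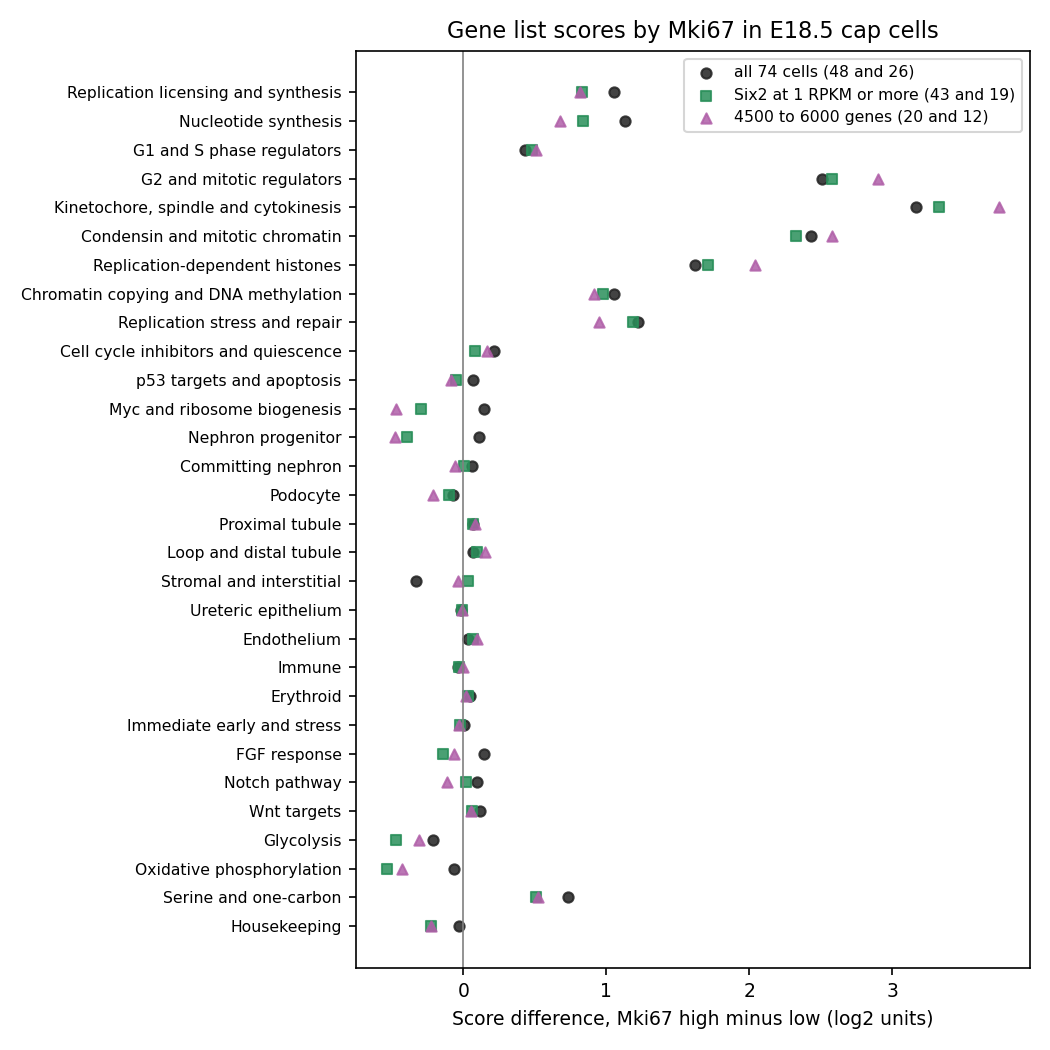
Each row is a gene list, and the horizontal axis gives the difference of mean list scores in log2 units, Mki67-high minus Mki67-low cells. Circles use all 74 cells, squares the 62 Six2-positive cells and triangles the 32 cells with 4500 to 6000 genes. The spindle list stands farthest to the right (3.17, 3.33 and 3.75), and the lists of other cell types lie near 0.

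Within the 48 high cells the amount of Mki67, the gene that made the classes, rose with spindle and mitotic genes more than with replication genes. Spearman's rho with Mki67 had a median of 0.51 over 29 spindle genes and 0.44 over 21 G2 and mitotic regulators. It was 0.12 over 24 replication genes and 0.15 over all 4898 genes seen in 50% of these cells. Condensin and chromatin genes had 0.31, while nephron progenitor and oxidative phosphorylation genes had 0.19 each. Cenpf, a kinetochore protein of G2 and mitosis, was highest among the list genes (0.77), followed by Cdca8 (0.65), of the chromosomal passenger complex, and Hmmr (0.64), a spindle protein. The number of genes seen per cell also rose with Mki67 (0.34), and the points share cells of 1 sample, so these values are descriptions.

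The promoter motifs followed the size of the difference. The search used whole RefSeq windows, from 250 bases before to 50 bases after the start, and found CHR in 17.9% of 32851 windows, an NF-Y box in 37.4% and an E2F site in 9.57%. Of the 56 spindle and mitotic list genes 47 were matched, with 49 windows, and 35 of these held CHR (71.4%), 36 an NF-Y box (73.5%) and 8 an E2F site (16.3%). Of the 28 replication genes 23 were matched, with 27 windows, of which 4 held CHR (14.8%), 17 an NF-Y box (63%) and 19 an E2F site (70.4%). The lists thus differ in opposite directions for CHR and E2F and share the NF-Y box. In 17 windows of nephron progenitor genes CHR was found in 1 (5.88%).

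Over all tested genes with a window, CHR was found in 12.2%. The share was 75.6% (34 of 45) for genes higher by 3 log2 units or more, 41.1% from 2 to under 3, 16.9% from 1 to under 2 and 11.3% from 0 to under 1. It was 11.2% from -1 to under 0 and 13.7% under -1, close to the share of all tested genes. The E2F site peaked lower, with 40% from 2 to under 3 and 24.4% at 3 or more, against 17.7% over all tested genes. Spindle and mitotic list genes make up much of the upper bins, so these shares and those of the lists are not independent.

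**Figure D4:**
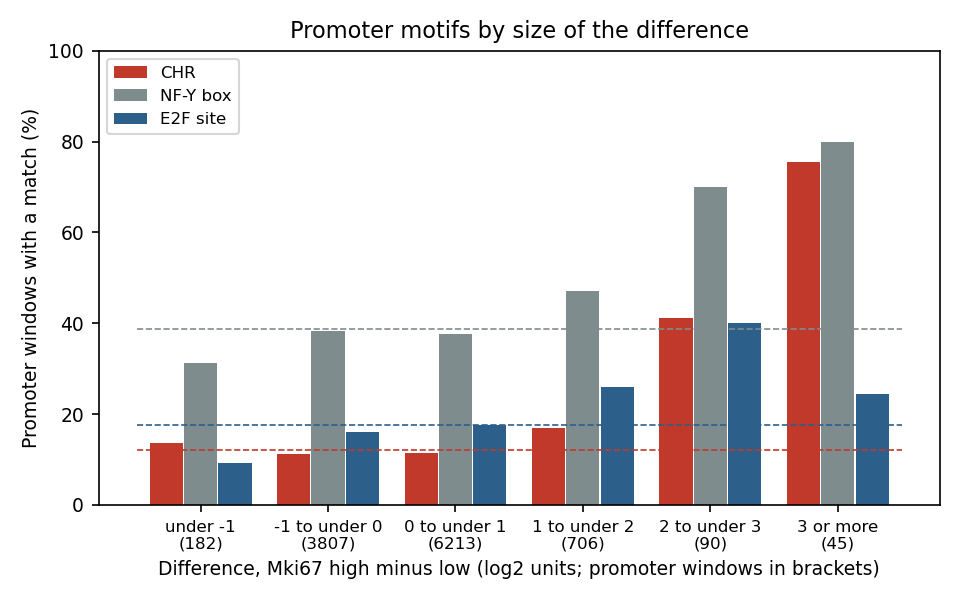
Bars give the percent of RefSeq promoter windows with a match to CHR, the NF-Y box or the E2F site, for genes grouped by the difference between Mki67-high and Mki67-low cells in log2 units, with the number of windows in brackets. Dashed lines give the percent over all tested genes. The CHR bars rise from 11.3% to 75.6% from left to right above 0, while the E2F bars are highest from 2 to under 3.

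The same cut in other cells of the series gave nearly all of the leading higher genes again, and a part of the other higher genes. Interstitial cells of E18.5 divided into 49 high and 22 low cells, with medians of 5347 and 4390 genes per cell. There 1490 of 11182 genes were higher (13.3%) and 129 lower (1.15%). All 10 leading higher genes of the cap were higher in the interstitium, with a median of 3.88, and all 10 were so within each of its 2 pools (medians of 3.87 and 3.91). Of 871 cap-higher genes tested in the interstitium 425 were higher there (48.8%, or 28.5% of the interstitial genes), beside 13.3% of all genes. The spindle list differed by 2.93 and the replication list by 1.33.

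The leading lower genes of the cap did not reach that size in the interstitium. None of the 10 leading lower genes was lower there by 1 log2 unit, Dhrs1 (1.34) and Rab18 (1.11) were higher, 6 of 10 were above 0, and their median was 0.33, beside 0.25 for all genes. Il33 was common in interstitial cells, at 1 RPKM or more in 37 of 49 high and 19 of 22 low cells, and differed by -0.70. Of 174 cap-lower genes tested in the interstitium 6 were lower (3.45%, or 4.65% of the interstitial genes), beside 1.15% of all genes, and 24 higher (13.8%). The difference between the 2 cell groups was not tested.

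In E13.5 Pax2 mutant cells, 12 high and 17 low, 2865 of 10652 genes were higher (26.9%) and 441 lower (4.14%). The classes had medians of 4978.5 and 4040 genes per cell, and the median difference of all genes was 0.38. The housekeeping, glycolysis and oxidative phosphorylation scores differed by 0.97, 1.12 and 1.68. The part of gene number in these values was not tested. All 10 leading higher genes were higher there (median 4.53), and 508 of 861 cap-higher genes were (59%, or 17.7% of the mutant's genes). Of the leading lower genes only Vamp8 (-1.26) was lower, and 4 were higher, namely Rab18 (3.21), Gpx1 (3.06), Gpx8 (1.76) and Dhrs1 (1.17). The 10 leading lower genes had a median of 0.35, close to that of all genes. Of 170 cap-lower genes 7 were lower (4.12%, or 1.59% of the mutant's genes), a share near the 4.14% of all genes, and 64 were higher (37.6%), beside 26.9% of all genes.

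In E18.5 Pax2 mutant cells only 5 of 44 had Mki67 at 1 RPKM or more, and 2 of these 5 held Top2a. With so few high cells, 1855 of 10503 genes were higher (17.7%) and 1108 lower (10.5%). The leading higher genes were higher in 9 of 10 (median 1.65), the exception being Tacc3 (0.70). Of 797 cap-higher genes 276 were higher there (34.6%, or 14.9% of the mutant's genes), beside 17.7% of all genes. Another 69 were lower (8.66%), beside 10.5% of all genes. Of the leading lower genes 4 were lower, namely Gpx8 (-1.87), Rspo3 (-1.85), Dvl3 (-1.68) and Zfp57 (-1.56), 2 were higher, Rab18 (2.25) and Gpx1 (1.64), and 5 of the 10 were above 0. Of 168 cap-lower genes 47 were lower (28%, or 4.24% of the mutant's genes), beside 10.5% of all genes. Age, genotype, date and pool cannot be told apart between these groups. The 18 wild-type cap cells of E13.5 held Mki67 in all but 1 and allowed no comparison.

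**Figure D5:**
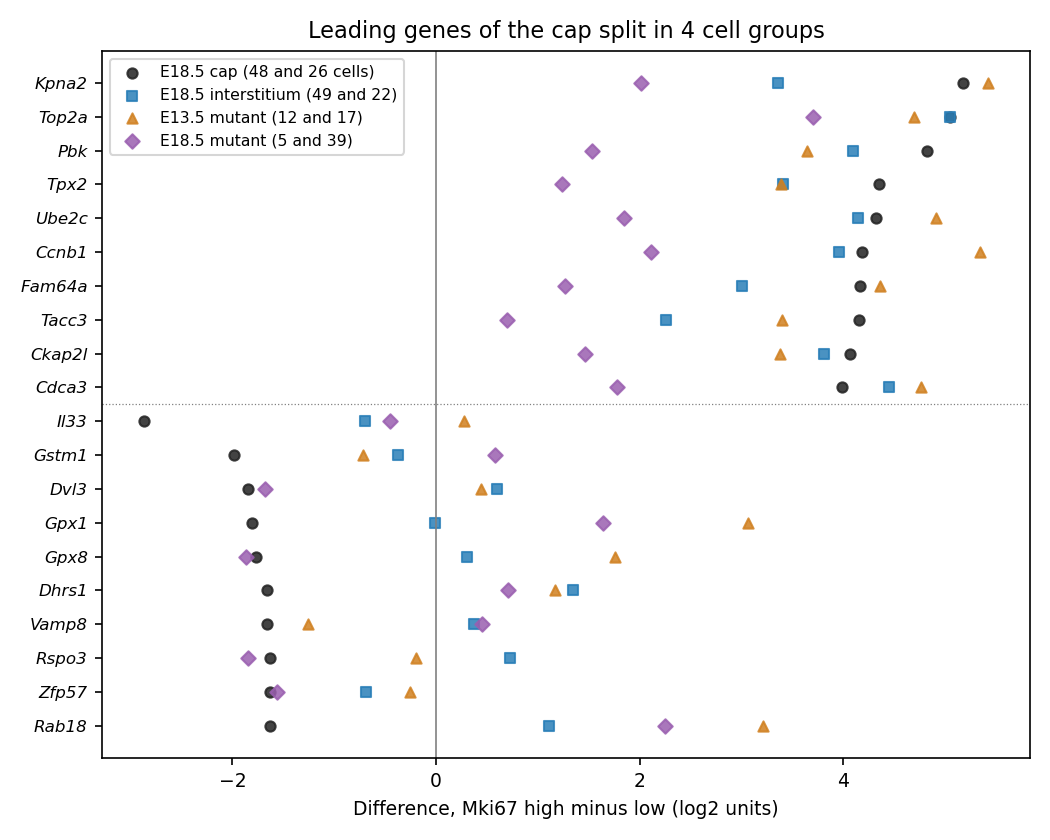
Differences in mean log2(RPKM + 1), Mki67-high minus Mki67-low, of the 10 leading higher genes (above the dotted line) and the 10 leading lower genes (below it) of the E18.5 cap in 4 cell groups. The higher genes lie to the right of 0 in every group, and the lower genes scatter on both sides of 0 outside the cap.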

How the data were processed

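Single-cell RNA-seq values were deposited by the authors as 1 table of RPKM for 36186 gene entries in 237 cells. Per the submitters' processing notes, reads were aligned with TopHat to mm10. The version, gene models and counting rule are not given in the sources used here. RPKM hold no counts, so depth per cell is unknown and a count of genes reaching 1 RPKM in each cell stands in for it.

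Groups came from the source names. The 74 E18.5 cap cells were split at 1 RPKM of Mki67. Values were taken as log2(RPKM + 1) with a pseudocount of 1 and averaged over cells. Genes reaching 1 RPKM in at least 10% of either class were tested, Mki67 excepted, and a difference of 1 log2 unit or more was called. Because no label names an embryo, each class counts as 1 sample and no p-value was computed. The shares of Mki67-high and Mki67-low cells with Top2a carry exact 95% Clopper-Pearson intervals, and other shares are given without one. Symbols on more than 1 entry (94) were left out of lists and naming.

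The 30 lists hold 447 genes, of which 2 match no entry. Besides list members, the text names the leading 10 genes in either direction by difference, among those reaching 1 RPKM in 50% of the higher class, without Gm, LOC and Rik models, mitochondrial, ribosomal protein and globin genes. The classes, members and lists were chosen with earlier results of these data known. No doublet caller was run. Both Xist and a Y-linked transcript were seen in 6 cells, and leaving these out was 1 of the alternatives tried, with other pseudocounts, filters, cuts, scalings and cell subsets. Promoters came from RefSeq (GRCm38.p6) by symbol. Of the 11 windows extracted, 9 matched GENCODE transcripts in sense and 0 in antisense. A check on simulated data covered only the size and sign of planted differences of means. The scripts ran in Python 3.11.15 with numpy 2.4.6, pandas 2.3.3 and scipy 1.17.1.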

Additional observations from a re-analysis of the deposited data

How the results depend on the processing

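Of 510 list scores recomputed under the alternatives, 508 moved by less than the spread between cells, which is wide: the oxidative phosphorylation score among them went from -0.06 to 1.71 with Mki67 above 0 as the cut. The exceptions were the spindle and kinetochore score at a pseudocount of 10 (1.58, from 3.17) and the proximal tubule score as a log2 ratio of class means (0.46, from 0.07). Of 358 recomputed differences of the leading genes, 350 moved by less than that spread, some of them to under 1 log2 unit, 4 moved by more, and 4 turned: with Mki67 above 0 as the cut Gpx1 (0.31), Gpx8 (0.25) and Zfp57 (0.040), and with the split by Top2a Gpx1 (0.13). Counts over all genes depended on the settings. The 875 higher genes became 2403 at a pseudocount of 0.1, 146 at a pseudocount of 10, 3039 with Mki67 above 0, 1575 without cells high in the pseudogene LOC100503946 and 1749 by the ratio of class means. The 176 lower genes became 442 and 16 at those pseudocounts, 536 with Mki67 above 0, 108 with the cut at 5 RPKM, 1079 with the split by Top2a, 1049 for cells with both genes against neither, 862 at 4500 to 6000 genes per cell, 416 without cells under 3000 genes, 291 without cells holding Pdgfra or Col3a1, 479 in Six2-positive cells, 1342 by the ratio of means, 310 after centring and 1046 against low cells without Top2a. The cause of these moves was not tested. In Six2-positive cells the 746 higher and 479 lower genes became 1163 and 862 at 4500 to 6000 genes, 1271 and 785 with the split by Top2a, and 1394 and 942 for both genes against neither. Split by Top2a, the interstitium had 258 lower genes, the E13.5 mutant 777 higher and 1950 lower, and the E18.5 mutant 2856 lower. The centred counts and those against each low class were chosen after seeing the data. No paired analysis was possible because the cell numbers in the labels only name cells of different sorts and pair nothing. Unknown depth limits every low value, and cells with few genes can miss transcripts they hold.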
